A study of Mus musculus with 8 samples.

Results

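The 7 genes described here encode the ionotropic kainate receptor subunits (Grik1, Grik2, Grik3, Grik4 and Grik5) and their auxiliary membrane proteins (Neto1 and Neto2). They were taken by gene name from a count table of 46078 rows. Each name had a single row, and all 7 were among the 15996 genes that passed the filter on low counts. Hippocampal poly(A) RNA came from C57BL/6J mice aged 9 weeks and was read in 4 libraries of wild type (WT) and 4 of the transgenic line Tg(Camk2a-cre)T29-1Stl as Cre+/- carriers (T29-1 Cre, called Cre from here on). In this line a Camk2a promoter drives Cre recombinase in forebrain excitatory neurons, and the labels name no floxed allele in either genotype. The carriers come from 1 transgenic line. The labels do not tie libraries to separate animals, so the p-values weigh group differences only against the scatter between these libraries, which could be technical. The title of the series names Syt2, and the comparison between genotypes asks which transcripts differ in carriers of the transgene.

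Kainate receptors are glutamate-gated cation channels made of 4 subunits. GluK1, GluK2 and GluK3 (genes Grik1 to Grik3) are the low-affinity subunits, which can form channels without the others. GluK4 and GluK5 (Grik4 and Grik5) bind kainate with high affinity and need a low-affinity partner to make a working channel. Neto1 and Neto2 are single-pass CUB-domain proteins that bind the receptors and slow their gating. In the hippocampus the best known site of these receptors is the mossy fibre synapse between dentate granule cells and CA3 pyramidal cells, where they give slow postsynaptic currents and act on release from the presynaptic side. GluK1 is known mainly from interneurons, and GluK4 from CA3.

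For none of the 7 genes was the difference between the genotypes larger than the spread between libraries. In the Cre group 5 had a higher mean and 2 a lower one, and edgeR called 0 of the 7 at an adjusted p under 0.05, against 1 of all 15996 genes (0.00625%), the sialyltransferase gene St6gal2, named here after its values were seen. At an unadjusted p under 0.05 there were 0 members, as with DESeq2 and limma-voom, against 2.43% of all genes. For 0 members did all libraries of one genotype lie above those of the other, against 1.81% of all genes. The median log2 fold change of the members was 0.08, and that of all tested genes was -0.00. The 95% intervals of the 7 fold differences lay between 0.821-fold (lower bound of Grik4) and 1.32-fold (upper bound of Grik1). These are values of whole tissue, in which fewer cells of a type and less RNA per cell cannot be told apart.

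The libraries held 23358289 to 30882631 counts. In a principal component analysis of log2 CPM, WT 4 stood apart on component 1 (26.1% of the variance), scoring -33.4 where the other 7 scored -0.69 to 8.74. Markers of CA3 (6 of 6 genes), CA2 (6 of 6), CA1 (5 of 5), dentate granule cells (6 of 6) and interneurons (9 of 9) passed the filter. The lowest summed level of these lists in any library was 218 CPM (CA2 markers, Cre 3). Summed levels of the tissues beside the hippocampus were, in WT and Cre, 26.3 to 32.6 and 27.8 to 34.4 CPM for 3 thalamic markers and 6.40 to 8.01 and 7.31 to 9.67 CPM for 3 striatal markers. For 5 neocortical and subicular markers they were 226 to 241 CPM in WT and 189 to 309 CPM in Cre. Choroid plexus markers, of which 3 of 4 passed the filter, were at 21.6 to 26.6 CPM in WT and 24.4 to 50.7 CPM in Cre. No listed marker had 0 counts in all 8 libraries, and edgeR called 0 markers. Their part in the members' values was not tested.

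Levels of different genes were compared as CPM per kilobase of merged exons. On this scale Grik5 was the highest of the 7, at 70.4 ± 5.69 in WT and 68.4 ± 2.90 in Cre (SD, n = 4 each). Neto1 followed at 14.96 ± 2.46 and 15.8 ± 2.99, Grik4 at 12.1 ± 1.12 and 11.9 ± 2.43, and Neto2 at 9.31 ± 1.14 and 10.1 ± 0.273. Grik3 stood at 7.52 ± 0.56 and 7.88 ± 0.888, Grik2 at 4.87 ± 0.562 and 5.18 ± 0.1, and Grik1 was lowest at 1.603 ± 0.221 and 1.79 ± 0.236. The order of the means was the same in both genotypes.

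**Figure D1:**
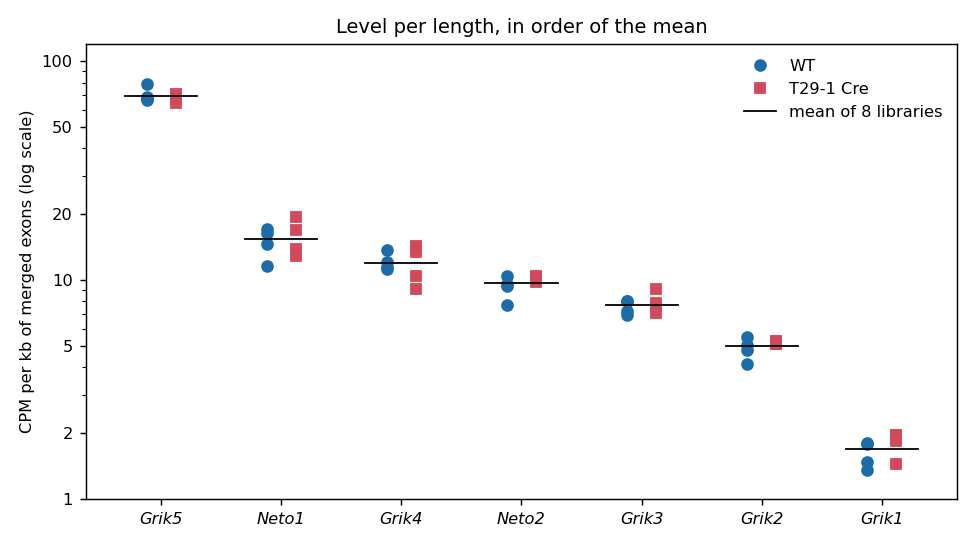
Levels of the 7 genes in CPM per kilobase of merged exons on a log axis, ordered by the mean of all 8 libraries; circles are WT libraries, squares Cre libraries (T29-1 Cre) and lines the mean. Grik5 lies between 64.3 and 78.9 in every library, above all the other genes, and Grik1 lies between 1.36 and 1.97, below them.

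The step from Grik5 to Neto1 was 4.51-fold, and every library of Grik5 lay above every library of Neto1. Grik3 was 1.53-fold above Grik2 and Grik2 was 2.96-fold above Grik1, again with no overlap of the 8 libraries. Neto1 and Grik4 (1.28-fold), Grik4 and Neto2 (1.23-fold) and Neto2 and Grik3 (1.26-fold) had overlapping ranges. Within a library Neto1 lay above Grik4 in 8 of 8 cases, Grik4 above Neto2 in 7 of 8 and Neto2 above Grik3 in 8 of 8. When the longest annotated transcript replaced the merged exons the order was kept, but the step from Grik3 to Grik2 shrank to 1.09-fold, with Grik3 above Grik2 in 7 of 8 libraries. Grik4 then lay above Neto2 in 6 of 8. Grik1 and Grik2 moved most, because their merged exons (6721 and 13246 bp) are much longer than their longest transcripts (3655 and 9427 bp).

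By this measure the high-affinity subunits made up most of the kainate receptor transcripts. Grik4 and Grik5 together held 85.2, 84.8, 83.9 and 87.9% of the summed level of Grik1 to Grik5 in WT 1 to 4 and 83.4, 84.9, 83.3 and 85.8% in Cre 1 to 4. The genotypes overlapped. Grik5 alone held 72.9 ± 2.71% in WT and 71.9 ± 1.16% in Cre, and Grik4 12.6 ± 1.29% and 12.4 ± 2.17% (SD, n = 4 each). Of the low-affinity subunits, Grik3 held 7.81 ± 0.778% and 8.31 ± 1.12%, Grik2 5.06 ± 0.765% and 5.45 ± 0.234%, and Grik1 1.67 ± 0.295% and 1.88 ± 0.254%. Neto1 made up 61.5 ± 1.59% of the summed Neto level in WT and 60.6 ± 3.96% in Cre (SD, n = 4 each).

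Set beside the other ionotropic glutamate receptors, Grik1 to Grik5 summed to 96.5 ± 4.48 CPM per kb in WT and 95.1 ± 4.17 in Cre (SD, n = 4 each). The AMPA receptor genes Gria1 to Gria4 summed to 299 ± 21.9 and 302 ± 11.7, and 6 tested NMDA receptor genes (Grin family) to 148 ± 5.95 and 149.8 ± 6.35. Kainate subunits thus held 17.8 ± 1.59% of the 3 families in WT and 17.4 ± 0.254% in Cre. WT 4 was the highest library at 20.2%, and the other 7 lay between 16.9 and 17.7%. The 2 other families were added as a scale after the members' values were known.

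The channel-lining part of the subunits carries a codon at which transcripts of Grik1 and Grik2 are known to be edited by ADAR enzymes, so that a genomic glutamine codon is read as arginine. The editing lowers calcium permeability. Editing itself cannot be seen in counts per gene. The 30 bases around this codon, read from the GENCODE M21 transcripts in the sense of the gene, are shown because they let the edited site be compared between the 5 subunits. Capitals mark the codon.
Grik1: ggagctctcatgCAGcaaggatcggagctg
Grik2: ggagctctcatgCAGcaaggttctgagctc
Grik3: ggctccctgatgCAGcaaggatctgaactg
Grik4: ggaggcttcatgCAGcaaggctccactatt
Grik5: ggtggcttcatgCAGcagggctcggagatc
In GRCm38 the codon lies in exon 12 of 17 of Grik1 (chr16:87940542-87940544, minus strand), exon 13 of 17 of Grik2 (chr10:49244329-49244331, minus), exon 12 of 16 of Grik3 (chr4:125691207-125691209, plus), exon 16 of 21 of Grik4 (chr9:42547623-42547625, minus) and exon 15 of 20 of Grik5 (chr7:25022497-25022499, minus), of the longest protein-coding transcript. The codon was found by searching each translated coding sequence for the amino acids MQQG, of which it encodes the first glutamine. The search thus fixed these amino acids in all 5 windows, and only synonymous bases could differ there. All 5 windows have the same glutamine codon, CAG. Against Grik2 the window of Grik1 differs at 3 bases, that of Grik3 at 7, that of Grik5 at 8 and that of Grik4 at 10.

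Over the whole coding sequence the low-affinity subunits shared 72.3 to 73.2% of aligned bases with each other, and the high-affinity pair 73.4%. Between these classes the identity was 63.4 to 67.4%, and Neto1 and Neto2 shared 70.8%. Reads can only be confused between members where a long stretch is identical. At most 8 different sequences of 31 bases, which can overlap each other, were shared by any pair (Grik3 and Grik5), and 0 of 50 bases. No protein-coding gene overlaps any of the 7 in GENCODE M21, and the non-coding rows of the table that do overlap them held at most 8 counts in a library. Further overlapping genes at Grik2, Grik3 and Neto1 have no row in the count table, so their counts could not be checked.

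Among the low-affinity subunits, Grik1 (chromosome 16, 87895900 to 88290265) was at 9.88, 12.1, 12.01 and 9.15 CPM in WT 1 to 4 and at 12.8, 12.3, 9.71 and 13.2 CPM in Cre 1 to 4. WT 1, WT 4 and Cre 3 were low, between 9.15 and 9.88 CPM, and the other 5 libraries lay between 12.01 and 13.2 CPM, so that the genotypes overlapped. The fitted difference was 0.15 on the log2 scale (SE 0.115; adjusted p = 0.998 by the quasi-likelihood test of edgeR), or 1.11-fold with a 95% interval of 0.937 to 1.32. Permuting the libraries (exact, two-sided, log2 CPM) gave p = 0.200, and the smallest p possible here is 0.0286. The gene had 219 to 368 counts per library, the lowest depth of the 7 genes.

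Grik2 (chromosome 10, 49094833 to 49788766) encodes the most widely used low-affinity subunit of principal cells. Its level was 63.5, 66.8, 72.7 and 54.9 CPM in WT 1 to 4 and 67.3, 69.97, 69.4 and 67.5 CPM in Cre 1 to 4. The Cre libraries lay close together, inside the range of WT, whose lowest value was WT 4. The fold difference was 1.06 (95% interval 0.957 to 1.181), or 0.09 on the log2 scale (SE 0.0707, edgeR adjusted p = 0.998, exact permutation p = 0.314). Without WT 4 the log2 fold change was 0.02, and without WT 3 it was 0.15, each still uncalled.

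Grik3 (chromosome 4, 125490700 to 125714173), a subunit of low glutamate sensitivity known from dentate granule cells, was at 71.8, 64.6, 71.6 and 61.9 CPM in WT 1 to 4. In Cre 1 to 4 it was at 70.4, 67.4, 81.8 and 63.2 CPM. Cre 3 was the highest library of all, and the other 7 were mixed between the genotypes. The log2 fold change was 0.07 (SE 0.0766, edgeR adjusted p = 0.998, exact permutation p = 0.543), or 1.05-fold (95% interval 0.934 to 1.17). Without Cre 3 it was -0.01.

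The high-affinity subunits differed in how they spread. Grik4 (chromosome 9, 42518135 to 42944493) was at 81.7, 67.0, 72.2 and 68.2 CPM in WT 1 to 4 and at 62.5, 80.4, 54.6 and 85.2 CPM in Cre 1 to 4. The Cre libraries held both the highest value of all (Cre 4) and the lowest (Cre 3), a 1.56-fold range. The log2 fold change was -0.03 (SE 0.116, edgeR adjusted p = 0.998, exact permutation p = 0.771), with a 95% interval of 0.821 to 1.16-fold. Its sign turned when WT 1, Cre 1 or Cre 3 was left out, with values of 0.03, 0.02 and 0.07.

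Grik5 (chromosome 7, 25009849 to 25072346), the partner subunit of most kainate receptors in principal cells, had the highest counts, 8251 to 10690 per library. It was at 353, 346, 349 and 408 CPM in WT 1 to 4 and at 332, 355, 359 and 367 CPM in Cre 1 to 4. WT 4 was the highest of all 8 libraries, and the other 3 WT libraries lay within the range of Cre. The log2 fold change was -0.04 (SE 0.0583, edgeR adjusted p = 0.998, exact permutation p = 0.657), or 0.971-fold (95% interval 0.89 to 1.06), the narrowest interval of the 7. Without WT 4 the log2 fold change was 0.02.

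Of the auxiliary proteins, Neto1 (chromosome 18, 86394952 to 86506718), known from CA3 and from mossy fibre synapses, was at 137, 123, 144 and 97.1 CPM in WT 1 to 4. In Cre 1 to 4 it was at 116, 141, 107 and 162 CPM. The lowest library was WT 4 and the highest Cre 4, a 1.67-fold range and the widest of the 7 genes. The log2 fold change was 0.08 (SE 0.128, edgeR adjusted p = 0.998, exact permutation p = 0.714), with a 95% interval of 0.871 to 1.27-fold. Left out in turn, WT 4 and Cre 4 each turned its sign, to -0.03 and -0.04.

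Neto2 (chromosome 8, 85636588 to 85700924) was at 57.8, 59.1, 63.9 and 47.4 CPM in WT 1 to 4 and at 60.2, 63.8, 61.1 and 63.0 CPM in Cre 1 to 4. WT 4 lay below all the other libraries, and Cre lay within 60.2 to 63.8 CPM. Neto2 had the smallest unadjusted p of the 7 (edgeR p = 0.135, rank 1482 of 15996 genes), at a log2 difference of 0.12 (SE 0.0744, adjusted p = 0.998, exact permutation p = 0.200). The fold difference was 1.09 (95% interval 0.972 to 1.21). Without WT 4 the log2 fold change was 0.04, and without WT 3 it was 0.18.

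**Figure D2:**
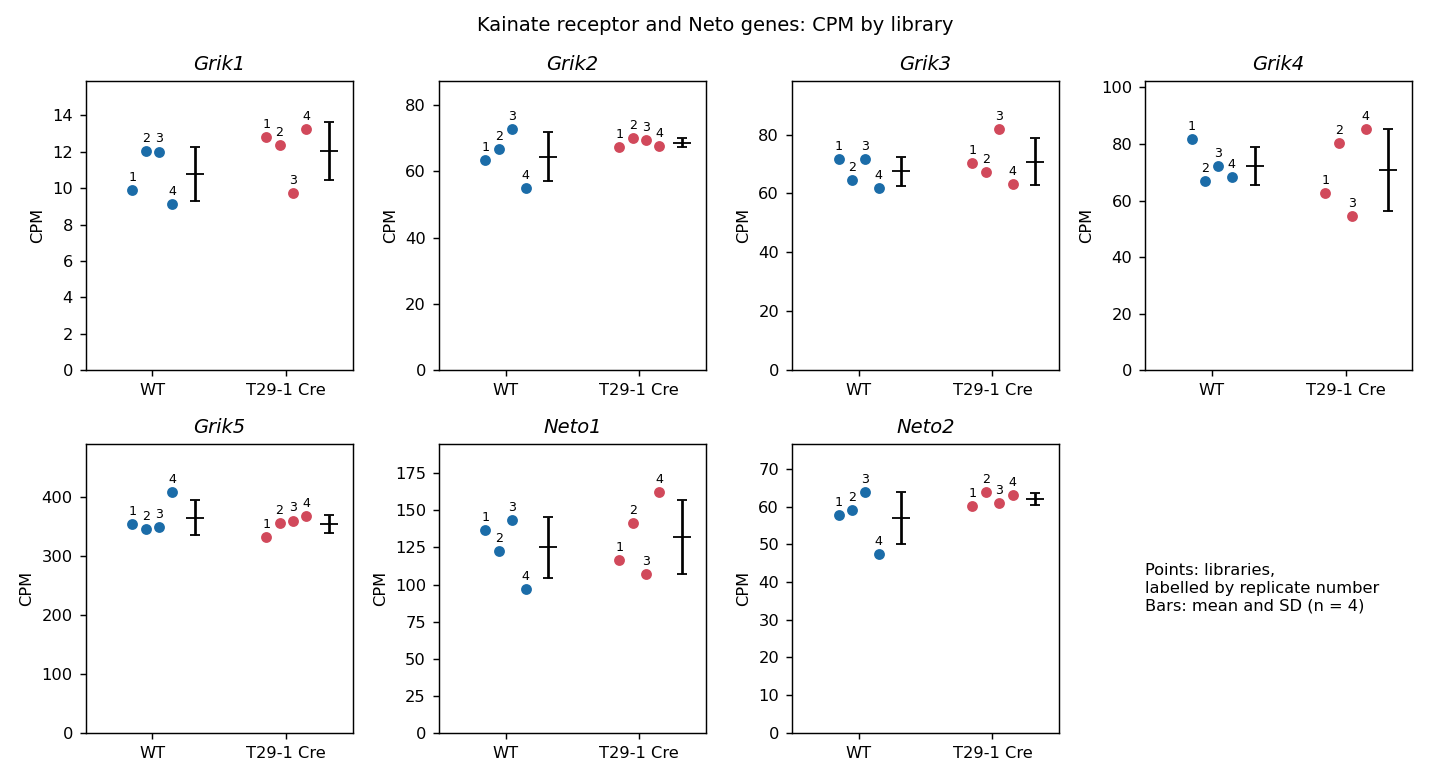
CPM of each gene by library, one panel per gene with its own axis from 0; points are libraries labelled by replicate number, and bars show the mean and SD of 4 libraries. WT 4 is the lowest library for Neto1 (97.1 CPM) and Neto2 (47.4 CPM) and the highest for Grik5 (408 CPM), and the genotypes overlap in every panel.

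WT 4 was the lowest WT library for Grik1, Grik2, Grik3, Neto1 and Neto2, second lowest after WT 2 for Grik4, and the highest for Grik5. Its log2 level minus the mean of the other 3 WT libraries was -0.46 for Neto1, -0.35 for Neto2, -0.30 for Grik2, -0.30 for Grik1, -0.16 for Grik3, -0.11 for Grik4 and 0.22 for Grik5. Of all tested genes, 7.31% had a lower value than Neto1, 12.5% than Neto2, 15.4% than Grik2 and 15.5% than Grik1. These shares were 27.6% for Grik3, 34.6% for Grik4 and 84.5% for Grik5, so many other genes moved as far in this library. The longest annotated transcript of Grik5 had the highest GC content of the 7 (61.7%, 4061 bp), and those of Neto2 (36.5%, 5610 bp), Grik2 (37.9%, 9427 bp) and Neto1 (39.6%, 8352 bp) the lowest. Grik3 (54.2%), Grik4 (52.2%) and Grik1 (47.9%) lay between. The part of base composition and length in these deviations was not tested.

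Across the 8 libraries 4 of the 21 pairs of members had a Pearson r of log2 CPM above 0.7. They were Grik2 with Neto2 (r = 0.97, and 0.85 over the 7 libraries without WT 4), Grik4 with Neto1 (0.78, and 0.93 without WT 4), Neto1 with Neto2 (0.73, and 0.47 without WT 4) and Grik1 with Neto2 (0.70, and 0.50 without WT 4). Many other genes had values as high. Of the 11501 genes compared, 17 correlated more closely with Grik2 than Neto2 did, and 65 more closely with Neto2 than Grik2 did. For Grik4 and Neto1 these counts were 250 and 829, and for Neto1 and Neto2 they were 1176 and 2055. Grik3 ran opposite to Grik4 (r = -0.55, and -0.68 without WT 4). Other pairs were more strongly opposite over 8 libraries: Grik5 had r = -0.75 with Neto2 and -0.61 with Grik1 (0.34 and -0.21 without WT 4). Grik3 with Grik1 was at -0.26 over 8 libraries and at -0.78 without WT 4. Grik2 and Grik5 were opposite over 8 libraries (r = -0.76), which rested on WT 4, since the value without it was 0.05. In all, 4 of the 21 pairs changed sign without WT 4. These are descriptions of genes measured in the same libraries, which share depth, dissection and composition.

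**Figure D3:**
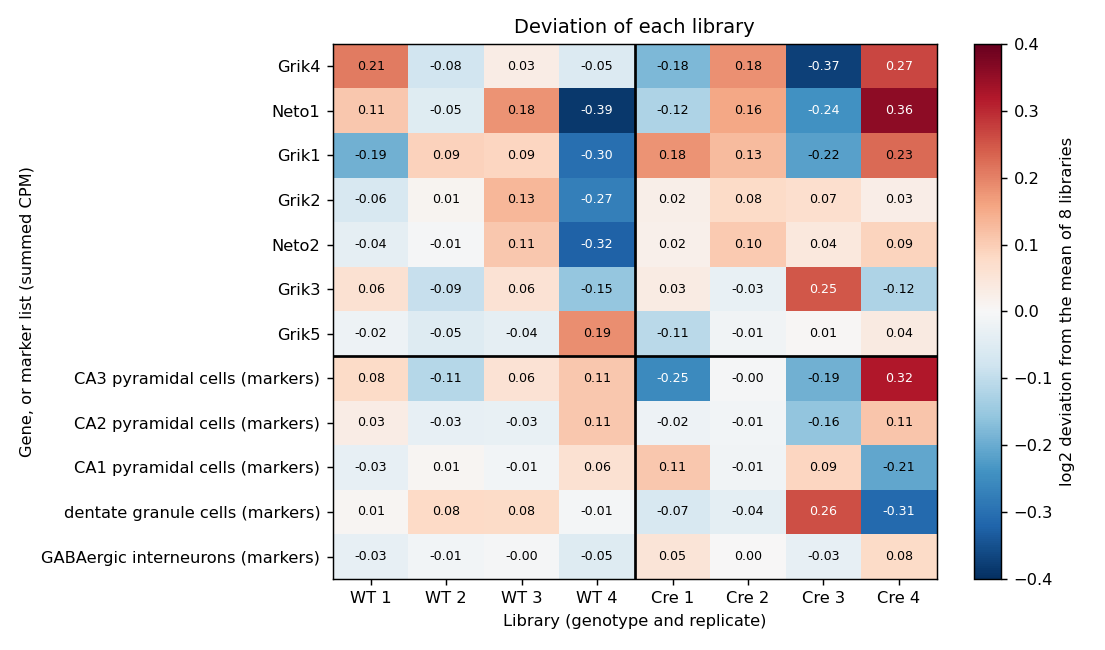
Log2 deviation of each library (columns) from the mean of all 8, for the 7 genes (log2 CPM, upper rows) and for the summed CPM of marker lists of hippocampal cell types (lower rows); colour and printed numbers give the deviation. Grik4 and Neto1 are highest in Cre 4 (0.27 and 0.36), where the CA3 markers are also highest (0.32), and lowest among the Cre libraries in Cre 3 (-0.37 and -0.24).

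Markers of hippocampal fields varied between libraries beside these genes. The 6 CA3 markers summed to 280.4, 246, 277 and 287 CPM in WT 1 to 4 and to 223, 265, 233 and 332 CPM in Cre 1 to 4, with the highest value in Cre 4 and the lowest in Cre 1. Their correlation was 0.79 with Grik4 and 0.55 with Neto1 over 8 libraries, and 0.85 and 0.94 without WT 4. The 6 dentate granule cell markers summed to 357, 376, 375 and 354 CPM in WT 1 to 4 and to 339, 346, 425 and 286 CPM in Cre 1 to 4. Cre 3 was highest for these markers and for Grik3 (r = 0.68, and 0.77 without WT 4). Other lists gave larger values for the same genes over 8 libraries. Grik3 had r = -0.85 with CA2, 0.77 with microglial and 0.73 with choroid plexus markers, Neto1 had -0.83 with CA1 and 0.80 with oligodendrocyte precursor markers, and Grik4 had -0.81 with CA1 markers. Without WT 4, Grik4 had 0.88 with CA2 and 0.86 with excitatory neuron markers, both above its value with CA3 markers. Neto1 then had 0.85 with CA2 and 0.84 with excitatory neuron markers, below its value with CA3 markers.

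Grik1 had its largest value with the 9 interneuron markers (r = 0.87, and 0.83 without WT 4). These summed to 897, 911, 915 and 886 CPM in WT 1 to 4 and to 952, 920.0, 897 and 969 CPM in Cre 1 to 4. The relations named here were picked after their values were seen, from 119 pairs of a member and a marker list, those with CA3, dentate and interneuron markers for the known sites of these genes, and carry no test. In Cre the summed markers ranged more widely than in WT for CA3 (223 to 332 against 246 to 287 CPM) and for dentate granule cells (286 to 425 against 354 to 376 CPM). For some other lists the range was wider in WT. Among them were excitatory neurons (3367 to 3691 CPM in Cre against 3399 to 3940 CPM in WT) and oligodendrocytes (3137 to 3465 against 3236 to 3866 CPM). The part of cell mixture in the members' levels was not tested.

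For each member the 2 tested genes with the most similar pattern over the 8 libraries were taken from the 11501 others whose mean reached 5 CPM. Neto2 was closest to Cbx5 and Tanc2 (r = 0.996 and 0.994), and Neto1 to Prkca and Camta1 (0.988 and 0.977), Prkca being also one of the partner genes described next. Grik5 was closest to Prpf6 and Apex1 (0.986 and 0.982), Grik2 to Zfp652 and Fam171b (0.985 and 0.982), and Grik4 to 3632451O06Rik and Kndc1 (0.973 and 0.968). Grik3 was closest to Ppp4r1l-ps and Tipin (0.966 and 0.954), and Grik1 to Pcsk1 and Kbtbd8 (0.964 and 0.961). Without WT 4 these 14 values ran from 0.915 to 0.985. These are the 2 highest of 11501 values for each member, each over 8 points.

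Proteins that place, move, modify or edit kainate receptors were taken as 37 partner genes in 6 groups, and all 37 were tested. edgeR called 0 of them in either direction (1 of all genes, 0.00625%), and 20 had a higher and 17 a lower value in Cre. Their median log2 fold change was 0.01, and that of all tested genes was -0.00. Of the partners, 2 had an unadjusted p under 0.05 (5.41%, against 2.43% of all genes), Grip2 and Kif17. DESeq2 and limma-voom also called 0, each with 2 at an unadjusted p under 0.05.

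Grip2, a PDZ scaffold of AMPA receptors whose family also binds kainate subunits, was at 14.2, 13.0, 13.8 and 12.9 CPM in WT 1 to 4 and at 15.8, 15.9, 15.8 and 15.7 CPM in Cre 1 to 4. All Cre libraries lay above all WT libraries, and Grip2 was the 1 partner of 37 whose genotypes did not overlap (1.81% of all genes). Its log2 fold change was 0.23 (SE 0.065, edgeR adjusted p = 0.998, unadjusted p = 0.00369). Kif17, a kinesin of dendrites known to carry GluK5 and NMDA receptor subunits, was at 26.5, 24.0, 25.9 and 26.2 CPM in WT 1 to 4 and at 22.4, 24.0, 23.2 and 22.3 CPM in Cre 1 to 4. Only Cre 2 reached into the WT range. The log2 fold change of Kif17 was -0.16 (SE 0.0581, edgeR adjusted p = 0.998, unadjusted p = 0.016).

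In the other groups 0 of 21 genes had an unadjusted p under 0.05. The 5 extracellular organisers include C1ql2 and C1ql3, ligands that gather kainate receptors at mossy fibre synapses. The log2 fold change of C1ql2 was -0.10 (SE 0.114) and that of C1ql3 was -0.01 (SE 0.0448). Of 8 genes of the ubiquitin and SUMO pathways, which act on the surface life of GluK2, parkin, listed under its older symbol Park2, had a log2 fold change of 0.07 (SE 0.1). Among 5 kinases Prkacb, a catalytic subunit of protein kinase A, had the smallest unadjusted p (0.185 by edgeR), at a log2 fold change of 0.07 (SE 0.048).

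The genes of the editing enzymes also differed by less than their spread. Adarb1, which encodes ADAR2, the main editor of the codon shown for Grik1 and Grik2, had 199.5 ± 11.6 CPM in the WT and 203 ± 7.87 CPM in the Cre libraries (SD, n = 4 each). Its log2 fold change was 0.02 (SE 0.0524). Adar was at 0.01 (SE 0.0453) and Adarb2, an editing-inactive relative, at -0.01 (SE 0.0737). Across the 37 partners the 95% intervals ran from 0.789-fold to 1.29-fold.

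**Figure D4:**
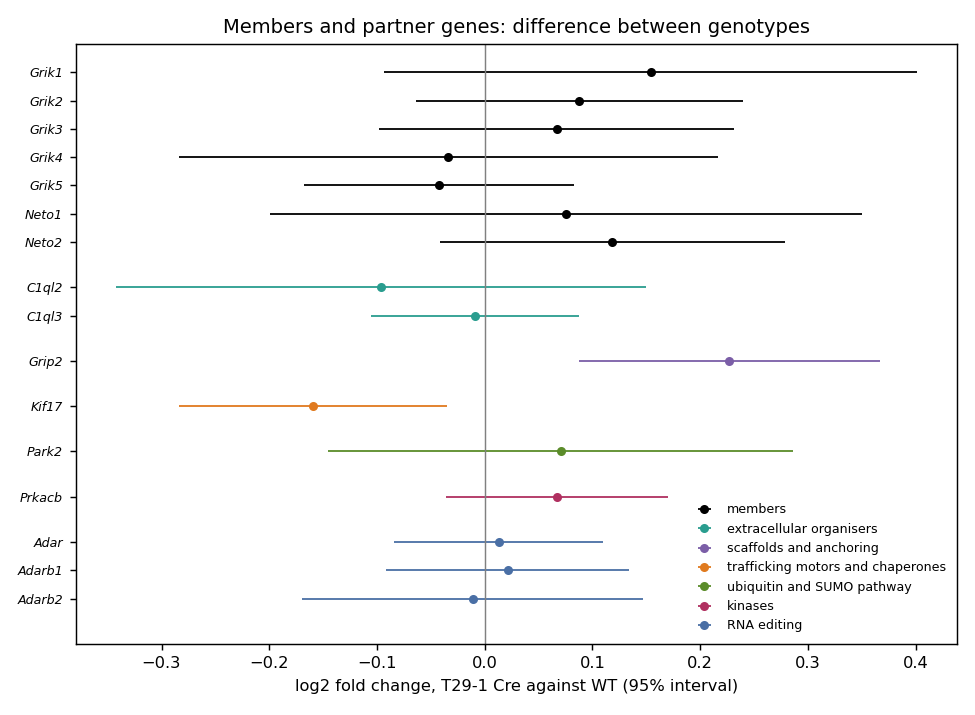
Log2 fold change of Cre against WT with its 95% interval for the 7 members (black) and the partner genes named in the text other than Prkca (coloured by group). The interval of every member includes 0, and among the partners drawn those of Grip2 (0.23) and Kif17 (-0.16) do not.

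The promoters of Grik2 and Neto2, which had the highest correlation of the 21 pairs, and of Grik5, the highest of the 7, are shown from 250 bases before to 50 bases after the start of the gene in RefSeq (GRCm38.p6), 5′ to 3′ on the strand of the gene, with CpG dinucleotides in capitals. Of the 7 genes 5 matched the promoter table. For Neto2 the upstream of its 2 listed starts is shown.
Grik2 (chr10:49788705-49789004, minus strand): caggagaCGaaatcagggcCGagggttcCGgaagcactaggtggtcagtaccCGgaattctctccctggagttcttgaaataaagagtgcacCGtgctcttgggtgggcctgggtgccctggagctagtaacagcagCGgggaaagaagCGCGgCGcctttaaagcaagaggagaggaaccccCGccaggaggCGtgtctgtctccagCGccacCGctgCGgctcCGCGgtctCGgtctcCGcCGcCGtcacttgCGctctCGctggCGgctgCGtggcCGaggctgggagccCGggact
Neto2 (chr8:85700875-85701174, minus strand): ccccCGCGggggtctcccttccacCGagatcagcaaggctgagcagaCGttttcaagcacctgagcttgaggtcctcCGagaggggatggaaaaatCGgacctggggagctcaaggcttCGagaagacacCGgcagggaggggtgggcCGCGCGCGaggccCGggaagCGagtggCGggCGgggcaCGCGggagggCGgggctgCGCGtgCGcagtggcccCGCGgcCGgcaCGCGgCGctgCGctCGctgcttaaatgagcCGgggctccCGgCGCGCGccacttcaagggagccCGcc
Grik5 (chr7:25072320-25072619, minus strand): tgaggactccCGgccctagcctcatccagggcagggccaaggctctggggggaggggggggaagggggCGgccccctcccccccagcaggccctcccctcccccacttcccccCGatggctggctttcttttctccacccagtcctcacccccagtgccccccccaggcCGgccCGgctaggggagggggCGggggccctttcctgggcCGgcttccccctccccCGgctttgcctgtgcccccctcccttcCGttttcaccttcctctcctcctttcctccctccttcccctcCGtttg
The Grik2 and Neto2 windows hold 26 and 36 CpGs at 64.7 and 72.0% GC, and that of Grik5 holds 10 CpGs at 72.0% GC. Over all 32851 promoter windows of this length the medians were 7 CpGs and 52.7% GC. Of the windows not shown, Grik3 had 50 and Grik4 42 CpGs, and the second start of Neto2 had 0. The letters TATAAA were found on neither strand in any listed window of the 5 genes, while 13.6% of all windows hold them on at least 1 strand.

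In the authors' deposited table of the same comparison, the log2 fold changes of the 7 genes were 0.16 for Grik1, 0.09 for Grik2, 0.07 for Grik3, -0.03 for Grik4, -0.04 for Grik5, 0.08 for Neto1 and 0.12 for Neto2. The unadjusted p-values of the authors' deposited table ran from 0.129 (Neto2) to 0.831 (Grik4).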

How the data were processed

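Hippocampal poly(A) RNA was sequenced in 4 WT and 4 T29-1 Cre libraries, and groups and replicate numbers came from the sample titles. The authors deposited unscaled read counts per gene name. The submitters' processing notes name GRCm38 and the tools STAR 2.6.1d, featureCounts and edgeR 3.11. The sources used here give no annotation release, strand setting or rule for multiply mapped reads. The authors also deposited a table with log2 fold changes, fold changes on a linear scale (other unit: signed), mean log2 CPM, mean CPM and unadjusted p-values.

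Counts were analysed in R 4.3.3 with edgeR 4.0.16 (filterByExpr with min.count 10 and min.total.count 15, TMM, glmQLFit and glmQLFTest, no covariate, Benjamini-Hochberg over 15996 genes, threshold 0.05). The SE is the log2 fold change over the root of F, and 95% intervals use the total degrees of freedom. Log2 CPM used a prior count of 2. Single genes also had an exact permutation test, two-sided, over 70 assignments of libraries. Lengths came from GENCODE M21 (GRCm38). Libraries of the same genotype differed beyond counting noise (chi-square 3.32 to 19.2 per degree of freedom), and each counted as 1 replicate. Depth was 23358289 to 30882631 counts. Intervals are those of the fold difference and rest on the spread between libraries.

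The members and lists were chosen with earlier results of these data known. Named genes were all members, partners with an unadjusted p under 0.05, the partner of smallest p in each group (not reported here for some groups), and the 2 genes most like each member by Pearson r; C1ql2, C1ql3, Park2, Adar and Adarb2 were added for their roles after their values were seen. Alternatives were DESeq2 1.42.0, limma-voom (limma 3.58.1), a likelihood ratio test, 3 scalings, 2 filters, a replicate block, each library left out in turn, and the longest transcript as length. Correlations without WT 4 were chosen after seeing the data. The edgeR fit was tested on simulated data.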

Additional observations from a re-analysis of the deposited data

Results flagged for a closer look

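Each genotype was screened over 7 genes and 8 shares, 30 groups of 4 libraries, for 1 library standing apart from its group. By chance about 1 in 20 independent groups would show one, and 1 did. Grik5 in WT 4 was at 8.67 log2 CPM, against 8.43 to 8.47 in the other WT libraries.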

How the results depend on the processing

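In all 17 alternatives edgeR, DESeq2 or limma-voom called 0 of the 7 members and 0 of the 37 partners, and the smallest adjusted p of a member was 0.892 (edgeR, no filter on low counts). At an unadjusted p under 0.05, 0 members passed with all 8 libraries. Without WT 3, Grik2 and Neto2 did (unadjusted 0.0391 and 0.029 by edgeR, adjusted 0.901), and without Cre 3, Grik1 did (0.0397 by edgeR, adjusted 0.9997). The number of genes called among all genes was 1 (St6gal2), and 2 with no filter on low counts or with the replicate block; the cause was not tested. With each library left out in turn, the log2 fold change ran from -0.011 to 0.117 for Grik3, -0.138 to 0.0726 for Grik4, -0.0663 to 0.0172 for Grik5 and -0.0412 to 0.162 for Neto1, so these 4 changed sign. Grik1 (0.09 to 0.25), Grik2 (0.02 to 0.15) and Neto2 (0.04 to 0.18) stayed positive in every alternative. The correlation of Grik2 with Grik5 changed from -0.76 to 0.0498 without WT 4, an alternative chosen after seeing the data. With the longest transcript as length the mean level over 8 libraries was 3.12 for Grik1, 7.06 for Grik2, 88.3 for Grik5 and 10.6 for Neto2, in place of 1.70, 5.02, 69.4 and 9.71. Replicate numbers showed no pairing: deviations of same-numbered libraries correlated at -0.07, 0.05, 0.02 and -0.03, and only number 2 matched itself best. Under the replicate block no member was called. Grik1 rested on the fewest reads of the 7, which limits its precision.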
